A study of Homo sapiens with 4 samples.

Results

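The genes described here are 10 markers and regulators of the epithelial-mesenchymal transition (EMT). They were chosen by name: the epithelial genes CDH1 and JUP, the mesenchymal genes CDH2, VIM and FN1, and the transcription factors TWIST1, SNAI1, SNAI2, ZEB1 and ZEB2. Their data are rows of a deposited table of 500 bp windows of hg19. A window was assigned to a gene if its midpoint lay between 3000 bp upstream of the start site and the end of the canonical transcript (GENCODE version 44 on GRCh37). The 10 genes cover 1661 such windows, of which 366 were in the table, among 956365 rows in all. A window in the table is called listed and a window not in it is called absent.

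The series holds 4 libraries of FADU, an established line from a human squamous cell carcinoma of the hypopharynx, with 1 library for each condition. Cells carried a scrambled control or a TET1 knockdown from a lentiviral vector, each kept under normoxia or hypoxia. The hypoxic cells were at 1% oxygen, for 18 h with the scrambled control and 19 h with the knockdown. TET1 oxidises 5-methylcytosine (5mC) to 5-hydroxymethylcytosine (5hmC), and the study asked whether it takes part in hypoxia-induced EMT. The titles of the samples name hMeDIP-Seq, the label protocol names an antibody to 5-methylcytidine, and the methods of the study describe chemical labelling of 5hmC, so that the mark behind the windows is uncertain. The 4 value columns of the table have names that match no sample. Their values were not used, and no condition was compared with another. The methods of the study give only a lower bound for the reads of each library, and the depth behind a listed window is unknown. What follows describes where the windows lie. A listed window does not tell which condition had reads there, and an absent window does not show that there were none.

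In EMT, epithelial cells lose their junctions and gain a motile, fibroblast-like state. E-cadherin (CDH1) joins neighbouring epithelial cells, and plakoglobin (JUP) links cadherins of junctions and desmosomes to the cytoskeleton. N-cadherin (CDH2), the intermediate filament protein vimentin (VIM) and the matrix glycoprotein fibronectin (FN1) are the usual mesenchymal markers. SNAI1, SNAI2, ZEB1, ZEB2 and TWIST1 are transcription factors that promote the transition, and the SNAI and ZEB proteins repress CDH1 through E-boxes in its promoter. In mammalian DNA, 5mC and 5hmC lie mostly at CpG sites, and 5hmC is often found in the bodies of transcribed genes, while CpG-dense start sites are usually unmethylated.

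The DNA upstream of ZEB1 is shown because this gene had no listed window among the 6 of its promoter. From the 5′ side these windows held 2, 1, 5, 8, 21 and 44 CpG sites. The share predicted for them from CpG and GC content, as described below, was 19%. The stretch is the 300 bases before the annotated 5′ end of the gene in GRCh37, read 5′ to 3′ on the plus strand, with CpG sites in capitals.

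ZEB1, chr10:31607124-31607423: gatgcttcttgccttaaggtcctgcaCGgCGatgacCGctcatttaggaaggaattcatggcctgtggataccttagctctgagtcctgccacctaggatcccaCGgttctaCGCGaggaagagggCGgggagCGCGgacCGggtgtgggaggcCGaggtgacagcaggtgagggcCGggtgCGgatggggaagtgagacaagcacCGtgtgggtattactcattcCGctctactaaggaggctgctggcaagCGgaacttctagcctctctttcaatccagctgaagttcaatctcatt

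This stretch has 16 CpG sites and lies wholly in an absent window with 21 CpG sites. It ends at position -722 from the start of the canonical transcript ZEB1-202, since other ZEB1 transcripts start further upstream.

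Windows were listed densely along CDH1, JUP and SNAI1 and sparsely along ZEB1 and ZEB2. Of the 203 windows of CDH1 (chr16:68768195-68869440 with its upstream part), 164 were listed, a share of 80.8%. Of the 70 windows of JUP (chr17:39910861-39945963), 60 were listed, or 85.7%. Of the 18 windows of SNAI1 (chr20:48596517-48605423), 16 were listed, or 88.9%. ZEB1 (chr10:31605145-31818732) was the opposite, with 9 of 427 windows listed, or 2.11%, and ZEB2 (chr2:145141648-145280686) had 17 of 278, or 6.12%. Over all autosomal windows, 17.6% were listed.

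The other genes lay between these. N-cadherin had 61 of 458 windows listed (CDH2, chr18:25530930-25760094), or 13.3%. Vimentin had 6 of 25 (VIM, chr10:17267240-17279592), or 24.0%, and fibronectin 25 of 157 (FN1, chr2:216225588-216303791), or 15.9%. TWIST1 (chr7:19155091-19160259) had 4 of 11 windows listed, or 36.4%, and SNAI2 (chr8:49830157-49836988) had 4 of 14, or 28.6%. The 95% Wilson intervals of these 5 genes overlapped in part, and with 11 to 25 windows those of TWIST1 (15.2% to 64.6%), SNAI2 (11.7% to 54.6%) and VIM (11.5% to 43.4%) were wide. The interval was 74.8% to 85.6% for CDH1, 75.7% to 92.1% for JUP, 67.2% to 96.9% for SNAI1, 10.5% to 16.7% for CDH2, 11.0% to 22.5% for FN1, 1.11% to 3.96% for ZEB1 and 3.85% to 9.57% for ZEB2. These intervals cover counting error only and treat neighbouring windows as independent, which they are not. There were no replicates, and no test was made.

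Windows rich in CpG sites and in G and C are listed more often, so each share was set against the share predicted from all autosomal windows of the same CpG number and GC content. CDH1 was listed 2.77 times as often as predicted (80.8% against 29.1%), JUP 1.84 times (predicted 46.6%) and SNAI1 1.95 times (predicted 45.7%). ZEB1 was at 0.223 of its prediction of 9.45%, and ZEB2 at 0.438 of its prediction of 14.0%. CDH2 was at 1.21, SNAI2 at 1.2, TWIST1 at 1.13, VIM at 1.03 and FN1 at 0.938. The Wilson interval lay above the predicted share in 3 genes (CDH1, JUP and SNAI1), below it in 2 (ZEB1 and ZEB2) and held it in the other 5. With a prediction from windows of the same chromosome only, the predicted share of ZEB2 was 9.11%, inside its interval, and that of CDH2 was 6.24%, below its interval, so that 4 genes lay above and only ZEB1 below.

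Of the 10 genes, 7 had more listed windows than predicted, beside 56% of 18826 protein-coding genes with at least 10 windows, so that this count is not far from the background. The count was 5 of 10 with a prediction from CpG number alone, where CDH2 (0.992) and VIM (0.949) went below 1, and 8 of 10 with a prediction from the same chromosome, where FN1 went to 1.42. The ratio of CDH1 was at percentile 97.2 of those genes, SNAI1 at 87.3 and JUP at 84.3. That of ZEB2 was at percentile 18.0 and that of ZEB1 at 10.7. The median ratio over all those genes was 1.11, and over the 10 genes 1.17.

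**Figure D1:**
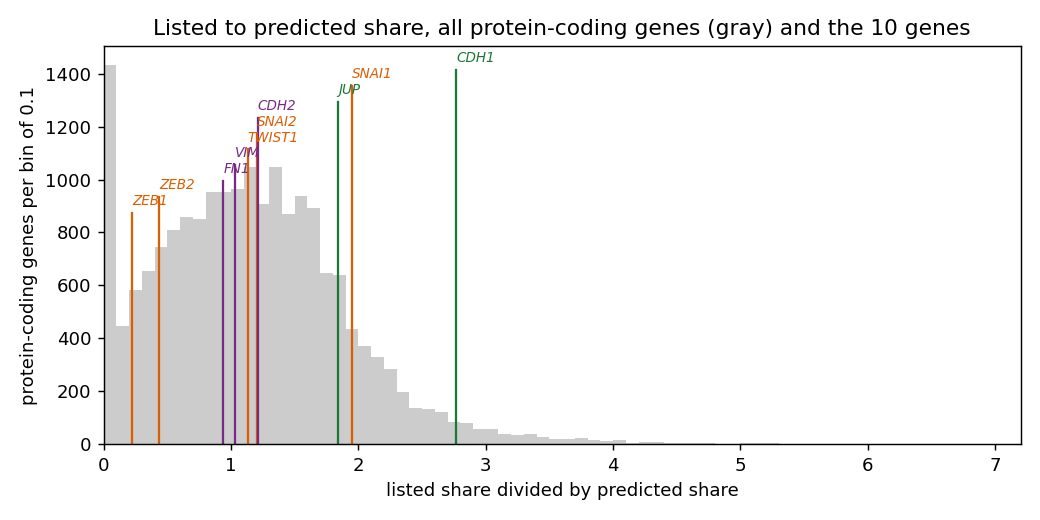
Listed share divided by predicted share (x axis) for 18826 protein-coding genes, as the number of genes per bin of 0.1 (gray, y axis), with a line for each of the 10 genes (green epithelial, purple mesenchymal, orange transcription factors). CDH1, at 2.77, is in the upper tail, ZEB1 and ZEB2 are in the lower part, and 5 genes lie between 0.938 and 1.21.

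Taken as groups, the epithelial genes had 224 of 273 windows listed, or 82.1% (Wilson interval 77.1% to 86.1%), against a prediction of 33.6%. The mesenchymal genes CDH2, VIM and FN1 had 92 of 640, or 14.4% (11.9% to 17.3%), against 12.9%. The transcription factors had 50 of 748, or 6.68% (5.11% to 8.70%), against 12.6%. ZEB1 and ZEB2 gave most of these windows, and the other 3 factors had 24 of 43 listed, or 55.8%, against 35.1%. Per gene, the median ratio of the 5 factors was 1.13, with 3 of 5 above 1. The difference between the epithelial genes and the other 8 was 71.8 percentage points, and it stayed between 68.2 and 75.5 points with each gene left out in turn. The lowest value was without ZEB1, which alone gives 427 of the 1388 windows of the 8 genes. With both ZEB1 and ZEB2 left out, the other 6 had 17.0% listed, against a prediction of 14.3%. The 71.8 points are not adjusted for CpG and GC content, which predicted 33.6% for the epithelial genes and 12.8% for the 8. The groups did not separate gene by gene, because SNAI1 had a higher share than CDH1 and JUP. With 2 epithelial genes, which are not replicates of a condition, no test of this difference was made.

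The surroundings of the 3 densely listed genes were densely listed too. In the 500 kb on each side, 59.5% of windows were listed at CDH1, 57.8% at JUP and 69.0% at SNAI1, which is 2.08, 1.71 and 2.07 times the prediction for those flanks. For the other genes the relation of gene and flanks varied. TWIST1, with only 11 windows, had 36.4% listed in flanks at 5.4%, and ZEB1 2.11% in flanks at 10.7%. SNAI2, at 28.6% in flanks at 26.0%, and ZEB2, at 6.12% in flanks at 5.20%, lay closer to theirs. The flanks of CDH2, VIM, FN1, TWIST1, ZEB1 and ZEB2 had between 5.20% and 10.7% of windows listed, and those of SNAI2 26.0%. Divided by the ratio of its flanks, the ratio of CDH1 was 1.33, of JUP 1.08 and of SNAI1 0.942. Against this local background CDH2 stood higher than CDH1, at 2.24 (13.3% listed against 5.4% in the flanks), followed by TWIST1 at 1.98, VIM at 1.64 and FN1 at 1.44. ZEB1 was lowest at 0.340, with SNAI2 at 0.741 and ZEB2 at 0.879.

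By this measure, 6 of the 10 genes were above their flanks, beside 52% of 18756 protein-coding genes. Among those genes CDH2 was at percentile 94.9, TWIST1 at 92.5, VIM at 86.0 and FN1 at 78.3. CDH1 was at 72.9, JUP at 54.5, SNAI1 at 42.8, ZEB2 at 37.3, SNAI2 at 27.0 and ZEB1 at 10.1. Taken on the listed shares alone, with no adjustment for CpG and GC content, the Wilson intervals of gene and flanks did not overlap for CDH1, JUP, CDH2, FN1 and TWIST1, which were higher, and for ZEB1, which was lower. With flanks of 100 kb the adjusted value was highest for VIM at 1.80 and TWIST1 at 1.74, both above CDH2 at 1.45. It was 1.15 for FN1, 1.14 for CDH1 and 1.05 for JUP, and for SNAI1 it turned from 0.942 to 1.05. ZEB1 at 0.652 was then close to ZEB2 at 0.679 and SNAI2 at 0.713. The 100 kb flanks had 4.75% of windows listed at ZEB1, 8.25% at ZEB2 and 28.2% at SNAI2. No input DNA was analysed here, and the part of copy number, of mapping and of the mark in these regional values was not tested.

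Along the gene bodies the patterns differed too. In CDH1, listed windows ran through the whole gene, with 143 of 174 intronic windows (82.2%) and 16 of 23 windows with exon sequence (69.6%). The longest unbroken run was 36 windows, or 18.0 kb, from 39.3 to 57.3 kb after the start. In JUP an absent stretch of 8 windows spanned the start, from -1.54 to 2.46 kb, and was followed by a run of 38 listed windows, or 19.0 kb. More than 3000 bp beyond its start, JUP had 56 of 58 windows listed, or 96.6%, and CDH1 155 of 191, or 81.2%.

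CDH2 had its 61 listed windows in 35 separate runs, the longest of 4 windows, spread from -1.66 to 212 kb relative to the start. In FN1, the longest run was 7 windows, from -0.209 to 3.29 kb relative to the start, and a stretch of 46 windows from 44.8 to 67.8 kb was absent. In VIM, 0 of 13 windows more than 3000 bp after the start were listed, which allows no statement on reads there. SNAI1 had all 6 such windows listed.

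In ZEB1 the first listed window from the 5′ side lay 71.6 kb after the start. It was followed by the other 8, and a stretch of 163 windows, or 81.5 kb, from 107 to 189 kb was absent. The 17 listed windows of ZEB2 lay in 14 runs between -2.56 and 130 kb. The 65 ZEB1 windows with under 90% unique 50-base sequences were all absent. Of the 362 ZEB1 windows with at least 90% unique sequences 2.49% were listed, against a predicted 7.5%. Their ratio was 0.331, beside 0.223 over all ZEB1 windows. Both predictions came from all autosomal windows, whether unique or not, so the prediction for the 362 windows was not restricted as they were. The part of mapping in the ZEB1 share was not tested.

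**Figure D2:**
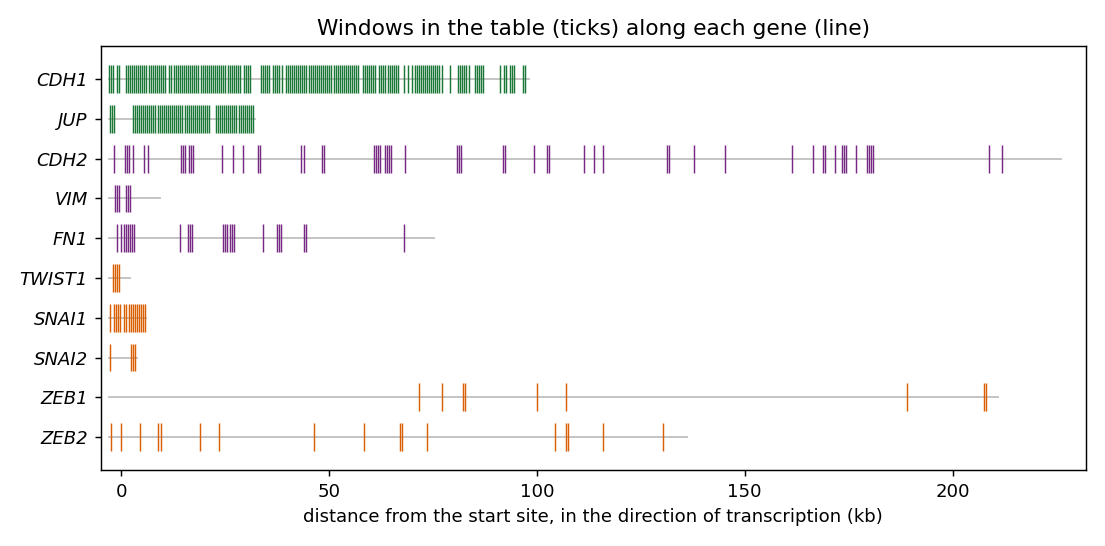
Position of each listed window (tick) along the 10 genes (lines), as distance from the start site in kb (x axis) in the direction of transcription. Ticks fill CDH1 and JUP, are scattered over CDH2 and FN1, and are missing from ZEB1 before 71.6 kb.

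At the start sites the order was different. The window that holds the start was absent in 8 of the 10 genes, including CDH1 (46 CpG sites), JUP (62) and SNAI1 (34), and listed in FN1 (49) and ZEB2 (23). Over protein-coding genes, 26.7% had a listed start window, so that the 2 of 10 here are not far from the background. In CDH1 the next window, with 36 CpG sites, was absent as well, and the one after it, with 37, was listed. In CDH2 a block of 4 absent windows with 43, 83, 51 and 56 CpG sites covered the start, and 3 listed windows with 29, 41 and 20 followed. In VIM, 3 listed windows with 47, 50 and 28 CpG sites lay from 1 to 2 kb after the start, and in TWIST1 all 4 listed windows lay upstream of it. Antisense RNA genes overlap some of the starts (VIM-AS1, ZEB1-AS1 and ZEB2-AS1), and a window belongs to both genes there. At TWIST1, all 4 listed windows also lie within a long noncoding RNA gene on the opposite strand.

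In the 3000 bp upstream of the start, about the promoter region of the study, 5 of 6 windows were listed in CDH1 and in SNAI1, 4 in TWIST1, 3 in JUP and in VIM, 2 in ZEB2, 1 in CDH2, FN1 and SNAI2, and 0 in ZEB1. This makes 25 of 60, or 41.7%, beside 39.1% of the promoter windows of all protein-coding genes. The epithelial genes had 8 of 12, the mesenchymal genes 5 of 18 and the transcription factors 12 of 30.

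Among windows with under 10 CpG sites, 83.2% of 202 were listed in the epithelial genes and 12.6% of 587 in the mesenchymal genes. For the transcription factors it was 4.57% of 679, beside 13.7% of such autosomal windows. ZEB1 (8 of 405 listed) and ZEB2 (12 of 255) gave most of these factor windows, while SNAI1 had 7 of 8 listed, SNAI2 4 of 8 and TWIST1 0 of 3. Among windows with 10 to 19 CpG sites the shares of the 3 groups, in the same order, were 82.3%, 26.3% and 31.0%, beside 45.7%. That the factors were above the mesenchymal genes there rests on SNAI1, with 7 of 7 listed. TWIST1 had 2 of 3 listed, ZEB2 3 of 17, ZEB1 1 of 10 and SNAI2 0 of 5. Among windows with 20 or more CpG sites the epithelial and mesenchymal shares were closer, at 5 of 9, 8 of 15 and 6 of 27, beside 44.3%. ZEB1 had 12 such windows, all of them absent.

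Other genes of the same processes gave a less clear division. Of 17 other epithelial genes, 15 had a listed share above the predicted one (13 of the 15 with at least 10 windows, beside 56% of all such protein-coding genes), and 674 of their 1361 windows were listed, 2.22 times the prediction. Of 20 other mesenchymal genes and regulators, 15 were above it, with 442 of 2060 windows listed, 1.05 times the prediction. These pooled values rest much on the longest gene of each list, and were 1.71 without GRHL2 and 1.32 without TCF4. The median ratio per gene was 1.65 and 1.48, beside 1.11 over all protein-coding genes, so that the pooled values differed more than the medians. Without GRHL2 and TCF4 the medians were 1.61 and 1.68, with the mesenchymal list higher. Of promoter windows, 62.7% were listed in the epithelial list and 64.2% in the mesenchymal list, beside 39.1% over protein-coding genes. The start window was listed in 5 of 17 and 11 of 20 genes, beside 26.7%. GRHL2, an epithelial transcription factor, had the highest ratio of its list, with 256 of 361 windows listed and a ratio of 4.31, in flanks at 3.14. OVOL2, a repressor of mesenchymal genes, had the lowest, at 0.637, in flanks at 0.753. In the mesenchymal list GSC, a homeobox factor, was highest at 2.60 with 10 of 10 windows, below its flanks at 3.22. TCF4, a basic helix-loop-helix factor, was lowest at 0.0662 with 6 of 738, in flanks at 0.191. Relative to their flanks the median was 1.16 for the epithelial list and 1.35 for the mesenchymal list, beside 1.02 for all protein-coding genes.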

How the data were processed

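Per the processing notes of the labels and the methods of the study, the authors mapped reads to hg19 with Bowtie 0.12.7, kept unique and monoclonal reads and named MEDIPS among the packages used. The deposited table gives the chromosome, first and last base of each window, which are positions and no other measure, and 4 columns of whole numbers whose names match no sample. These 4 columns were not used. Its name points to a minimum count of reads, but the rule by which windows were kept was not tested.

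The windows were laid on GRCh37, which has the coordinates of hg19 on these chromosomes, and those with an undetermined base were left out. All rows of the deposited table had starts and lengths that match this grid. The 34 rows of mitochondrial DNA were left out, since windows were laid on the autosomes, X and Y only. The predicted share was the share listed among autosomal windows with the same CpG number (40 or more as 1 class) and GC content in steps of 25 bases. Unique sequence was the percent of 50-base sequences of a window found once in the genome, with no mismatch. The calculation of the ratio was checked for errors on simulated data; this is not a test of the ratios printed. The members and lists were chosen with earlier results of these data known. All 10 members are named, and of the other lists the highest and lowest gene. Python 3.11.15, NumPy 2.4.6, numba 0.67.0 and Matplotlib 3.10.9 were used. Some upstream sequences are not reported here.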

Additional observations from a re-analysis of the deposited data

How the results depend on the processing

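The difference in pooled listed share between the epithelial genes and the other 8 kept its direction under all alternatives run for it. It lay between 68.2 and 75.5 percentage points, and was 70.0 points with windows of at least 90% unique sequence. That alternative was chosen after seeing the data, as was the flank of 100 kb. None of these differences in share is adjusted for the flanks or for CpG and GC content. The predicted shares were 33.6% for the epithelial genes and 12.8% for the other 8. Divided by the ratio of the 500 kb flanks, the median ratio per gene was 1.2 for the epithelial genes and 1.19 for the other 8. It was 1.64 for the mesenchymal genes, above the epithelial ones. The median share of the 10 genes was 26.3% and became 15.8% with the upstream part left out, where TWIST1 went from 36.4% to 0. TWIST1 was at 10.0% over the whole annotated gene. The listed promoter windows were 25 of 60 with 3000 bp and 13 of 30 with 1500 bp, since a shorter region holds fewer windows. The ratio of CDH1 was 3.05 with a prediction from CpG number alone and 2.18 with 1 from its own chromosome, and that of CDH2 rose from 1.21 to 2.14 in the latter. The cause was not tested. No paired analysis was possible because the comparisons use window positions alone, with 1 library per condition and no replicate numbers.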

Other observations

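The protein-coding genes next to the members were described in the same way, a choice made after seeing the data. CDH3, the P-cadherin gene that ends 34.0 kb before the CDH1 region, had 94 of 116 windows listed, or 81.0%, close to the 80.8% of CDH1, and TANGO6 on its other side had 292 of 489, or 59.7%. The nearest such genes to CDH2 lay far off. CHST9, 766 kb away, had 10 of 564 windows listed, or 1.77%. DSC3, a desmosomal cadherin gene 2809 kb away on the other side, had 27 of 112, or 24.1%. RNF114, beside SNAI1, had 31 of 41 windows listed, and GTDC1, beside ZEB2, had 32 of 795.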
